A study of Mus musculus with 9 samples.

Results

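Rest encodes the zinc-finger repressor REST, and 9 further genes encode proteins that work with it or that set the splicing and stability of neuronal RNA. They are the REST corepressor gene Rcor2, the splicing regulators Ptbp1, Ptbp2, Srrm4, Celf3 and Nova1, and Elavl2, Elavl3 and Elavl4 of the neuronal Hu family. These 10 genes were chosen by symbol from the 30406 genes that all 9 count tables hold, and each symbol was found once in every table. Their levels were followed through the reprogramming of mouse embryonic fibroblasts (MEFs) into induced neurons (iNs).

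REST binds RE1 elements beside many neuronal genes and keeps those genes silent in non-neuronal cells, together with corepressors of the RCOR family. PTBP1 represses many neuronal exons in non-neuronal cells, and its paralog PTBP2 takes its place as neurons form, while SRRM4 promotes the inclusion of neuronal microexons, among them one in the Rest transcript that leads to a truncated REST. The Hu proteins, CELF3 and NOVA1 bind RNA in neurons and influence splicing, stability or translation.

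The study asked how the circadian regulators Per1 and Per2 bear on reprogramming, and single cells were profiled from wild-type (WT), Per1-/- and Per2-/- cultures on days 4, 7 and 10 of reprogramming with lentiviral factor genes, among them Brn2 (gene symbol Pou3f2) and Myt1l. By the methods, days count from the change to N3 medium with doxycycline, which came after the viruses were added. Every culture received the same viruses, so no untransduced library is part of the comparison. By the methods, the cells came from MEFs of pooled embryos of undetermined sex with head and heart removed, the viruses were made in 293FT cells, a human embryonic kidney line, and the mutant alleles were Per1tm1Drw and Per2tm1Drw. Each of the 9 combinations of genotype and day was 1 library of the 10x 3′ kind, which counts molecules by unique molecular identifiers (UMIs). Changes over days were therefore tested with the 3 genotypes as replicates, and genotypes with the 3 days as replicates. Nothing says that these were repeat cultures, so the p-values measure only the spread between these libraries.

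The libraries held 6885 to 13309 barcodes and 126625215 to 353198559 UMIs, and 73557 cells were kept. WT day 10 stood apart, with a median of 3552 UMIs per barcode against 16135 to 25795 elsewhere. Of 93922 distinct barcodes, 1537 were found in 2 or more libraries. Per1-/- day 4 shared 365 with Per2-/- day 7 and 210 with WT day 4. WT day 4 and Per2-/- day 7 shared 132, and every other pair shared 13 to 63. In the Per1-/- libraries of days 7 and 10, 94.1% and 93.2% of cells had a Y-linked UMI and no Xist UMI, against 11.2% to 47.2% elsewhere, so genotype and embryo sex cannot be told apart there. The tables of day 10 carry another Cell Ranger header than those of days 4 and 7 (6.0.0 against 4.0.0), so day 10 and that version cannot be told apart either. The targeted genes were not lower in the libraries labelled as their knockouts, and Per2 was 1.70 ± 0.23 (SE) higher in Per2-/- than in WT neuron-like cells on the log2 scale (edgeR, adjusted p = 0.0674). The sources used here do not give the position of the deletions relative to the 3′ tags, so these UMIs do not check the labels.

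Cells were grouped into classes by marker genes, without any of the 10 genes or the reprogramming factor genes taking part in the clustering. The neuron-like class held 6999 cells in 2 clusters, the fibroblast-like class 35353, the macrophage-like class 6416, the skeletal muscle-like class 3638, the Schwann-like class 2563, the astrocyte-like class 863 and the mesothelial-like class 447, and 17278 cells stayed unnamed. In neuron-like cells the 14 fibroblast markers stood at a median of 2.51% of their fibroblast-like level (1.66% for Dcn to 13.3% for Thy1), and the 12 macrophage markers at a median of 0.316%. Although the labels call every sample induced neurons, 3.02% to 19.2% of the cells of a library were neuron-like. The lowest share was that of WT day 10, with 170 of 5625 cells, and it depended on the clustering. When cells were clustered more finely, 1749 cells of WT day 10 were neuron-like. Levels below are CPM, the UMIs of a gene per 1000000 pooled UMIs of a class in a library, and they compare a gene between classes and days, not genes with each other. Differences between classes are given without a test, since the classes were drawn from the same cells. Set against fibroblast-like cells of the same library, 50.6% of 10228 genes were higher in neuron-like cells in all 9 libraries. A further 23.8% were lower in all 9, and these genes had a mean of at least 10 CPM in either class. Of the 10 genes, 7 were higher and 2 lower in all 9.

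To show where these genes start, the 250 bases before the start of Elavl3 and of Srrm4 are given from the RefSeq promoter table (GRCm38.p6), as both are high in neuron-like cells but differ in what they hold. The Elavl3 stretch is chr9:22052024-22052273 on the minus strand, and its capitals mark CAGCTG, a palindromic form of the E-box, 43 bases before the start. The Srrm4 stretch is chr5:116591818-116592067 on the minus strand and holds no CAGCTG, so it has no capitals. Only CAGCTG was searched for, and other forms of the E-box (CANNTG), which both stretches hold, are not marked.
Elavl3: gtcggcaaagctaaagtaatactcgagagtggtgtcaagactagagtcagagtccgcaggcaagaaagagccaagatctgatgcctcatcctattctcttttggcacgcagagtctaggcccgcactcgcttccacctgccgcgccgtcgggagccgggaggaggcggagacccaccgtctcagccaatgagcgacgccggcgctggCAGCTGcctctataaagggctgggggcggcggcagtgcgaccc
Srrm4: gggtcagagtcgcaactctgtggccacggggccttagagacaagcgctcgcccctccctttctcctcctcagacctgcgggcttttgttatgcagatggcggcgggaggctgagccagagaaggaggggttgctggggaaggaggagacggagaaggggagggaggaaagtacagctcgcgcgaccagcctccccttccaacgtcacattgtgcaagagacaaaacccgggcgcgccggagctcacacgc

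The same window held CAGCTG at 4271 of 32851 RefSeq gene starts (13.0%), and at 7 of the 23 starts listed for the 10 genes, which belong to Elavl3, Elavl4, Celf3 and Nova1. An RE1 core, searched on both strands as CAGCACC followed after 2 bases by GGACAG, was found at 11 of the 32851 starts and at none of the 23 starts listed for these genes. A match of letters is a description and not a bound site, and Rest has no entry in the table.

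Rest (chromosome 5, 77265491 to 77286432 on the plus strand, GRCm38, GENCODE M21) was far lower in the neuron-like class than in every other named class, among which its level varied. Its level over 9 libraries was 100.1 ± 6.66 CPM (SD) in fibroblast-like cells, with a range of 90.1 to 109 CPM around a median of 101 CPM. In neuron-like cells the lowest of 9 libraries stood at 2.32 CPM, the median at 3.93 CPM and the highest at 6.10 CPM. No neuron-like library reached the lowest library of another class, and each was at 2.29% to 5.94% of its own fibroblast-like level. That residue lies within the range of the fibroblast markers in neuron-like cells given above. Its part in the residue was not tested.

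Skeletal muscle-like cells held Rest at 101 ± 9.35 CPM and mesothelial-like cells, seen in 4 libraries, at 102 ± 4.22 CPM, neither of which differed from fibroblast-like cells beyond their spread. Schwann-like cells followed at 93.1 ± 6.33 CPM, astrocyte-like cells at 70.6 ± 6.79 CPM in 8 libraries and macrophage-like cells at 45.6 ± 5.79 CPM. The last of these did not overlap with the class above or below. Thinned to 10000 UMIs per cell, 2.73% of 4180 neuron-like cells had a Rest UMI against 58.5% of fibroblast-like, 55.2% of skeletal muscle-like and 34.7% of macrophage-like cells. The thinning left out 2819 neuron-like cells with fewer UMIs, and without it the neuron-like and fibroblast-like shares were 4.001% and 79.999%.

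**Figure D1:**
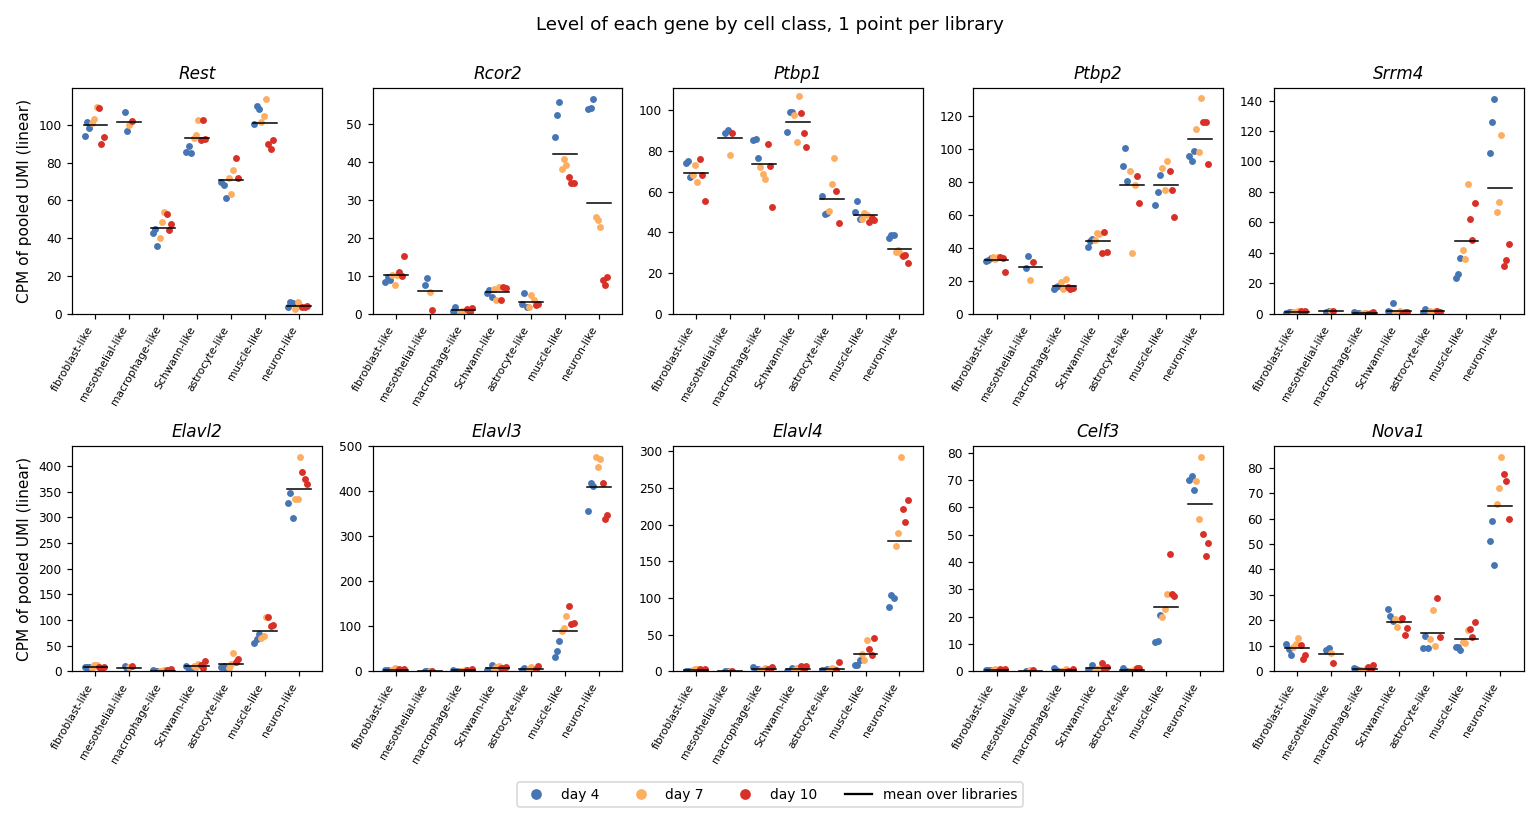
Level of each of the 10 genes in CPM (linear axis from 0) by cell class, with 1 point per library coloured by day and a bar at the mean over libraries. Rest lies near 100 CPM in fibroblast-like and skeletal muscle-like cells and below 10 CPM in all 9 neuron-like sums, while Srrm4, the Elavl genes and Celf3 are high in neuron-like and raised in skeletal muscle-like cells.

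Rcor2 (chromosome 19, 7267325 to 7275225 on the plus strand), whose product bridges REST to the histone demethylase LSD1, did not follow Rest across the classes. Its mean over libraries was highest in skeletal muscle-like cells at 41.9 ± 7.88 CPM, followed by neuron-like cells at 29.3 ± 20.4 CPM. Skeletal muscle-like cells were above the neuron-like cells of the same library in 6 of 9 and below them in 3, those of day 4. The SD in neuron-like cells reflects a wide range over libraries, from 7.56 CPM through a median of 24.7 CPM to 56.6 CPM, that sorted by day, as given below. Fibroblast-like cells held 10.1 ± 2.23 CPM and macrophage-like cells 0.861 ± 0.521 CPM, so Rcor2 was near 0 in a class that kept Rest.

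Ptbp1 (chromosome 10, 79854427 to 79864771 on the plus strand) and Ptbp2 (chromosome 3, 119718742 to 119784466 on the minus strand), the paralogs that repress neuronal exons in non-neuronal cells and in early neurons, ran in opposite directions between fibroblast-like and neuron-like cells. Ptbp1 stood at 55.3 to 76.1 CPM in fibroblast-like and at 24.8 to 38.5 CPM in neuron-like cells, with no overlap, and the neuron-like level was 36.9% to 57.1% of the fibroblast-like one. Ptbp2 stood at 24.99 to 34.4 CPM in fibroblast-like and at 90.9 to 131 CPM in neuron-like cells, again with no overlap. The neuron-like level of Ptbp2 was 283% to 383% of the fibroblast-like one in the same library. In every library, Ptbp1 thus kept a larger share of its fibroblast-like level than Rest did.

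Other classes placed the paralogs in other orders. Schwann-like cells had the highest Ptbp1 at 94.1 ± 8.20 CPM, and their Ptbp2 was 44.0 ± 4.76 CPM. Astrocyte-like and skeletal muscle-like cells both held Ptbp2 at 77.9 CPM (SD 19.2 and 11.1), and both overlapped with neuron-like cells, although skeletal muscle-like cells were below the neuron-like cells of the same library in all 9. Macrophage-like cells had the lowest Ptbp2 at 16.6 ± 2.04 CPM beside 73.8 ± 10.8 CPM of Ptbp1.

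In single cells thinned to 10000 UMIs, a Ptbp1 UMI was found in 20.7% to 29.3% of the neuron-like cells of a library (median 27.1%) and a Ptbp2 UMI in 52.9% to 68.9% (median 60.5%). The fibroblast-like shares were 41.2% to 52.5% for Ptbp1 and 21.6% to 29.2% for Ptbp2. Both genes together were seen in 10.2% to 19.6% of neuron-like cells. The share of neuron-like cells with a Ptbp2 UMI, among those with a Ptbp1 UMI minus among those without, averaged -1.94 percentage points, ran from -23.2 to 9.73 points over the libraries, and was positive in 4 of 9. Without thinning the same difference averaged 7.26 points and was positive in 7 of 9, and no direction is read from it. Thinning lowers the UMIs per cell and also leaves out shallow cells, and their parts in the turn of sign were not tested. The shares depend on depth, and without thinning the medians in neuron-like cells were 29.8% for Ptbp1 and 67.0% for Ptbp2.

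**Figure D2:**
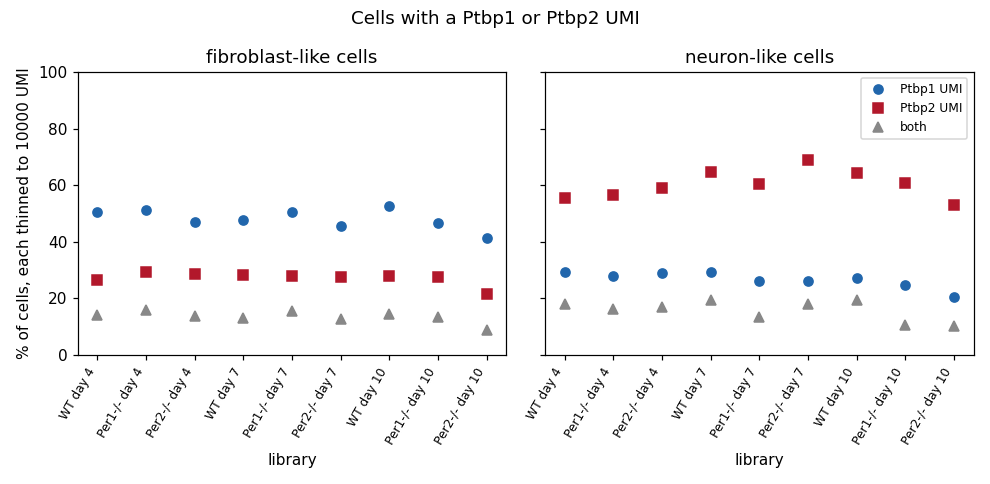
Share of cells with a Ptbp1 UMI, a Ptbp2 UMI or both, in percent of cells thinned to 10000 UMIs, for each library (1 point each) in fibroblast-like (left) and neuron-like (right) cells. Ptbp1 lies above Ptbp2 in all 9 fibroblast-like groups and below it in all 9 neuron-like groups.

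Srrm4 (chromosome 5, 116439275 to 116591817 on the minus strand), the microexon regulator, marked the neuron-like and skeletal muscle-like classes. Neuron-like cells held 31.0 CPM in the lowest library, 73.2 CPM in the median one and 141 CPM in the highest. Skeletal muscle-like cells held 23.7 to 85.1 CPM with a median of 41.5 CPM, and the ranges of these classes overlapped. In the remaining classes the mean was at most 1.52 CPM, and fibroblast-like cells had 1.10 ± 0.340 CPM. After thinning to 10000 UMIs, 41.2% of neuron-like and 19.5% of skeletal muscle-like cells had a Srrm4 UMI, against 0.909% of fibroblast-like and 0.466% of macrophage-like cells, a class that should lack the gene.

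Elavl2 (chromosome 4, 91250763 to 91400785 on the minus strand), Elavl3 (chromosome 9, 22015005 to 22052023 on the minus strand) and Elavl4 (chromosome 4, 110203722 to 110351909 on the minus strand) encode the neuronal Hu proteins HuB, HuC and HuD. In neuron-like cells Elavl2 ranged from 299 to 418 CPM, Elavl3 from 339 to 476 CPM and Elavl4 from 88.6 to 293 CPM. In skeletal muscle-like cells the same genes were at 79.4 ± 18.9, 90.2 ± 36.1 and 23.7 ± 13.4 CPM, below every neuron-like library but above every fibroblast-like one. Fibroblast-like cells held 8.52 ± 2.19 CPM of Elavl2, 3.72 ± 1.87 CPM of Elavl3 and 2.09 ± 1.14 CPM of Elavl4. In thinned cells an Elavl3 UMI was found in 91.0% of neuron-like, 25.02% of skeletal muscle-like and 2.14% of macrophage-like cells, the last of which should lack the gene.

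Celf3 (chromosome 3, 94478295 to 94492198 on the plus strand), a CELF family splicing factor of neurons, stood at 61.2 ± 12.7 CPM in neuron-like, 23.6 ± 9.86 CPM in skeletal muscle-like and 0.682 ± 0.248 CPM in fibroblast-like cells. Nova1 (chromosome 12, 46694517 to 46818929 on the minus strand), whose product regulates exons of synaptic genes, had 65.1 ± 13.5 CPM in neuron-like cells and no other named class overlapped with it. It differed from Srrm4 and Celf3 in its second class, which was the Schwann-like one at 19.6 ± 2.98 CPM. Skeletal muscle-like cells had 12.9 ± 3.70 CPM of Nova1 and fibroblast-like cells 9.01 ± 2.66 CPM, which overlapped.

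The skeletal muscle-like class held 7 of the 10 genes above, and Rest near, the fibroblast-like level. Against the fibroblast-like cells of the same library, Rcor2, Ptbp2, Srrm4, Celf3 and the 3 Elavl genes were higher in all 9 libraries and Ptbp1 was lower in all 9, while Rest was at 82.5% to 110% and higher in 6 of 9. Of the 9749 genes with at least 10 CPM in either class, 46.1% were higher in all 9. The leading genes of this class included the muscle genes Tnnt2, Actc1, Acta1 and Myh3. Its 10 neuron markers stood at a median of 25.1% of their neuron-like level, from 8.57% for Syt1 to 390% for Nefl, and their part in these levels was not tested.

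Over time, the genes changed in the neuron-like class in both directions. Between days 4 and 10, 3 of the 10 rose and 4 fell (edgeR's quasi-likelihood test, adjusted p below 0.05), where 47.8% of the 13682 genes tested passed in either direction. Leaving out any 1 library kept 6 of the 7 calls, all but that of Elavl2. Between days 4 and 7, 2 rose and 3 fell, where 19.0% of all genes passed, and 3 calls were left without Per2-/- day 4 or Per2-/- day 7. The neuron-like cells of day 10 came mostly from another cluster than those of day 4: cluster 18, led by Snhg11, Caly and Stmn3, held 87.9% to 96.3% of them on day 10, 1.40% to 12.6% on day 7 and at most 0.490% on day 4. Day and cluster cannot be told apart on day 10.

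Rcor2 fell most. On day 4 it stood at 53.9 CPM in WT, 54.1 in Per1-/- and 56.6 in Per2-/- neuron-like cells. On day 7 the same libraries had 25.4, 24.7 and 22.7 CPM, and on day 10 they had 8.81, 7.56 and 9.70 CPM. No day overlapped with another, and the log2 change from day 4 was -1.19 ± 0.11 on day 7 (adjusted p = 5.35e-05) and -2.53 ± 0.13 on day 10 (adjusted p = 8.53e-08). Within cluster 1 alone, which held most cells of days 4 and 7, the mean went from 54.8 to 24.0 CPM, and the part of the clusters in the change to day 10 was not tested.

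Srrm4 fell in the same cells. The day 4 libraries held 105 CPM in WT, 126 in Per1-/- and 141 in Per2-/- cells, and the day 7 libraries held 66.6, 73.2 and 117 CPM. On day 10 the levels were 31.0, 35.1 and 45.8 CPM, and none of them overlapped with an earlier day. The log2 change was -0.56 ± 0.10 on day 7 (adjusted p = 0.00311) and -1.66 ± 0.11 on day 10 (adjusted p = 5.03e-07). At the finer clustering the day 7 call of Srrm4 was lost (-0.93, adjusted p = 0.0700), and it passed there when WT day 10 was also left out (-0.91, edgeR, adjusted p = 0.000332). Per2-/- had the highest level of each day.

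Elavl4 went the other way, from 88.6 CPM in WT, 104 in Per1-/- and 99.96 in Per2-/- cells on day 4 to 171, 189 and 293 CPM on day 7. On day 10 it stood at 221, 203 and 234 CPM, so that most of the rise was seen by day 7. The log2 change was 1.13 ± 0.13 on day 7 (adjusted p = 0.000188) and 1.24 ± 0.13 on day 10 (adjusted p = 1.46e-05). With cells clustered more finely both calls of Elavl4 were lost, at 0.92 (adjusted p = 0.117) and 0.78 (adjusted p = 0.0632). When WT day 10 was also left out, both passed, at 0.93 (edgeR, adjusted p = 0.000492) and 1.09 (adjusted p = 0.000165). Elavl2, by contrast, rose by 0.29 ± 0.11 on day 10 (adjusted p = 0.0401), a call that was lost without any library of day 10, without WT or Per2-/- of day 4 or without Per1-/- day 7, with adjusted p from 0.0506 to 0.209. Elavl3 stayed within 339 to 476 CPM with a day 10 change of -0.03 ± 0.10 (adjusted p = 0.844).

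Nova1 rose from 51.0, 59.1 and 41.9 CPM on day 4 (WT, Per1-/- and Per2-/-) to 65.6, 72.1 and 84.2 CPM on day 7. On day 10 it stood at 77.3, 74.6 and 59.9 CPM, above every day 4 library, with a log2 change of 0.55 ± 0.14 (adjusted p = 0.00562), which was 0.17 and not called at the finer clustering (adjusted p = 0.547). Its day 7 call (0.56 ± 0.13, adjusted p = 0.0132) was lost without Per2-/- day 4 (adjusted p = 0.0723) or Per2-/- day 7 (adjusted p = 0.0931). The day 7 change of Nova1 passed under 15 of 18 alternatives. At the finer clustering it was 0.41, and it passed there (0.42, edgeR, adjusted p = 0.0299) when WT day 10 was also left out. Celf3 fell, from 70.0, 71.3 and 66.5 CPM on day 4 to 50.3, 42.2 and 46.8 CPM on day 10, and all 3 day 10 libraries lay below those of day 4. The log2 change of Celf3 was -0.51 ± 0.11 (adjusted p = 0.00317), while day 7 showed -0.03 ± 0.11 (adjusted p = 0.880).

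Ptbp1 fell from 37.1, 38.5 and 38.5 CPM on day 4 to 30.4, 31.6 and 29.4 CPM on day 7 and 28.1, 28.8 and 24.8 CPM on day 10. The day 10 change was -0.41 ± 0.10 (adjusted p = 0.00521), and at the finer clustering it was 0.014 (adjusted p = 0.976). The day 7 change of -0.32 ± 0.10 (adjusted p = 0.0373) was lost when any of 7 libraries was left out, with adjusted p from 0.0594 to 0.153: all 3 of day 4, all 3 of day 7, or Per1-/- day 10. At the finer clustering this day 7 change was -0.12. It was -0.11 there (edgeR, adjusted p = 0.383) when WT day 10 was also left out. Ptbp2 had 95.7, 92.5 and 98.8 CPM on day 4 and 117, 116 and 90.9 CPM on day 10, a log2 difference of 0.24 ± 0.12 that did not pass (adjusted p = 0.109). Without Per2-/- day 10, the lowest library of that day, it was 0.41 (adjusted p = 0.00710).

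Rest itself did not pass the test in neuron-like cells, and its value depended on which cells were kept. Its day 4 levels were 3.56, 6.04 and 5.66 CPM in WT, Per1-/- and Per2-/-, its day 7 levels 2.32, 6.10 and 4.26 CPM, and its day 10 levels 3.41, 3.41 and 3.93 CPM. The days overlapped, the log2 difference was -0.41 ± 0.25 between days 4 and 10 (adjusted p = 0.207), and each library had only 12 to 166 Rest UMIs in these cells. With likely doublets kept, Rest passed as lower on day 7 (-0.92, adjusted p = 0.0179) and on day 10 (-0.79, adjusted p = 0.0159). The sign of this value turned when cells were clustered more finely. The neuron-like class then took in a cluster of 1631 cells, 1577 of them from WT day 10, and a cluster of 1308 cells of which 459 had been neuron-like before. With that clustering and without WT day 10, Rest still differed by 0.86 (adjusted p = 0.0217), and the cause was not tested.

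**Figure D3:**
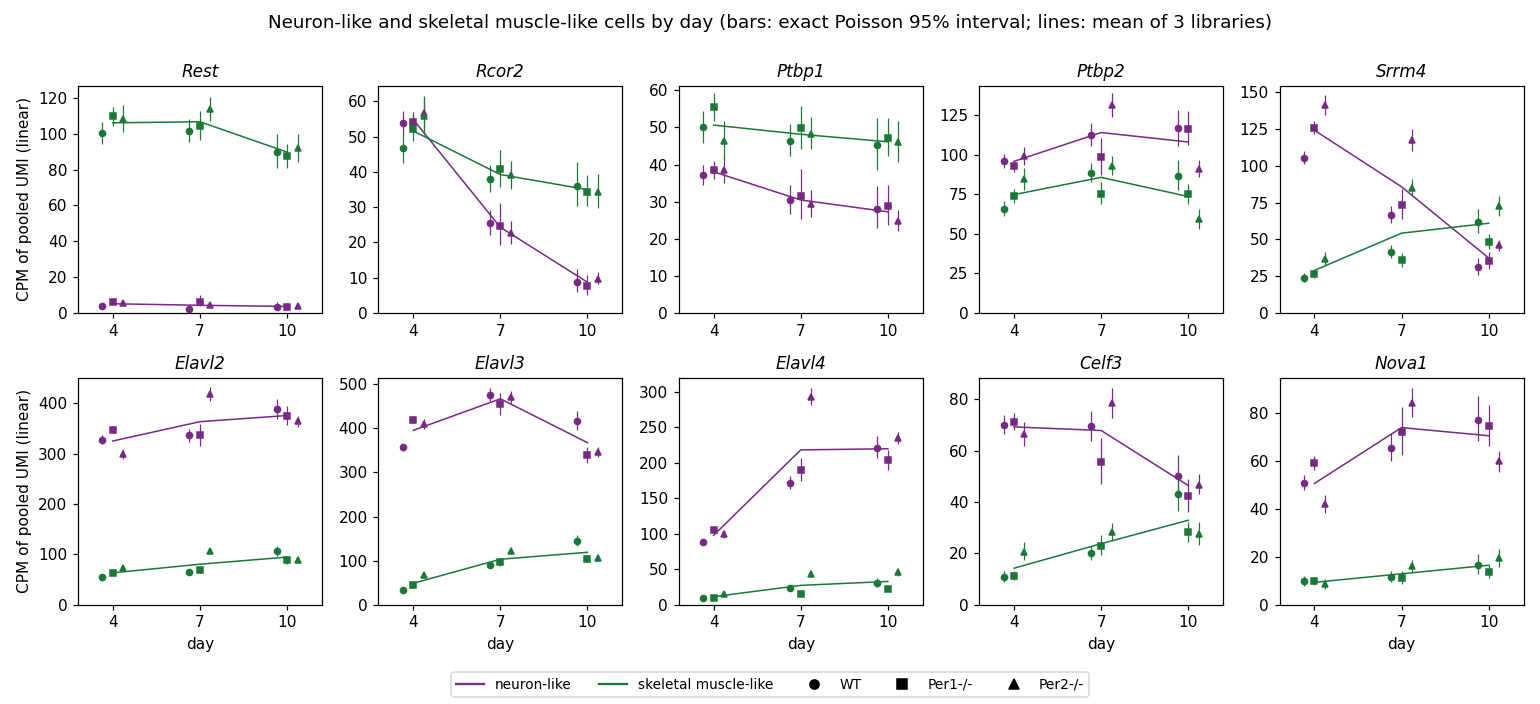
Level of each gene in CPM (linear axes from 0) against day, for neuron-like (purple) and skeletal muscle-like (green) cells, with 1 symbol per library shaped by genotype, bars for the exact Poisson 95% interval of counting error, and lines through the mean of 3 libraries. Srrm4 goes from 124 to 37.3 CPM in neuron-like and from 28.8 to 60.9 CPM in skeletal muscle-like cells, and Rcor2 goes down in both.

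The skeletal muscle-like class gave a different course for Srrm4, described here without a test since none was set for this class. Its levels were 23.7, 26.1 and 36.7 CPM on day 4 (WT, Per1-/- and Per2-/-), 41.5, 35.9 and 85.1 CPM on day 7, and 61.9, 48.4 and 72.5 CPM on day 10. All day 10 libraries lay above all day 4 libraries, the opposite order from the neuron-like cells. Elavl3 went from 32.9 to 68.1 CPM on day 4 to 105 to 145 CPM on day 10, and the mean of Celf3 went from 14.2 to 32.9 CPM. Rcor2 went down in this class too, from a mean of 51.6 to 34.97 CPM, and Rest from 106 to 89.9 CPM.

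In fibroblast-like and macrophage-like cells none of the 10 genes passed by edgeR between days. The fibroblast-like class was made of different clusters by day and genotype: cluster 5 held at most 0.0654% of it on day 4 and 75.1% in Per1-/- day 10, and cluster 7 held 0% on day 4 and 71.4% in Per2-/- day 10. The part of this makeup in the comparisons that use the class was not tested. Between days 4 and 10, 0 of the 10 genes passed in fibroblast-like cells, where 14.1% of 16928 genes did (edgeR), with 1 of the 10 at an unadjusted p below 0.05. That gene was Elavl4 at 1.19 ± 0.46 (adjusted p = 0.123), named after its values were seen, which DESeq2 called (adjusted p = 0.0369) and which passed in edgeR without Per1-/- day 10 (1.75, adjusted p = 0.0261). Between days 4 and 7, 0 of the 10 passed and 0% of all genes did by edgeR, with 2684 genes and 1 of the 10 at an unadjusted p below 0.05 and 789 genes called by DESeq2.

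Rest differed by -0.06 ± 0.08 in fibroblast-like cells between days 4 and 10 (adjusted p = 0.656), and by 0.29 ± 0.14 in macrophage-like cells (adjusted p = 0.180). In macrophage-like cells 0 of the 10 passed on day 10, where 16.9% of 12735 genes did, and 0 on day 7, where 0.573% did, and 0 of the 10 had an unadjusted p below 0.05 in either. DESeq2 called 2297 and 561 genes there. In macrophage-like cells 7 of the 10 averaged at most 3.46 CPM.

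**Figure D4:**
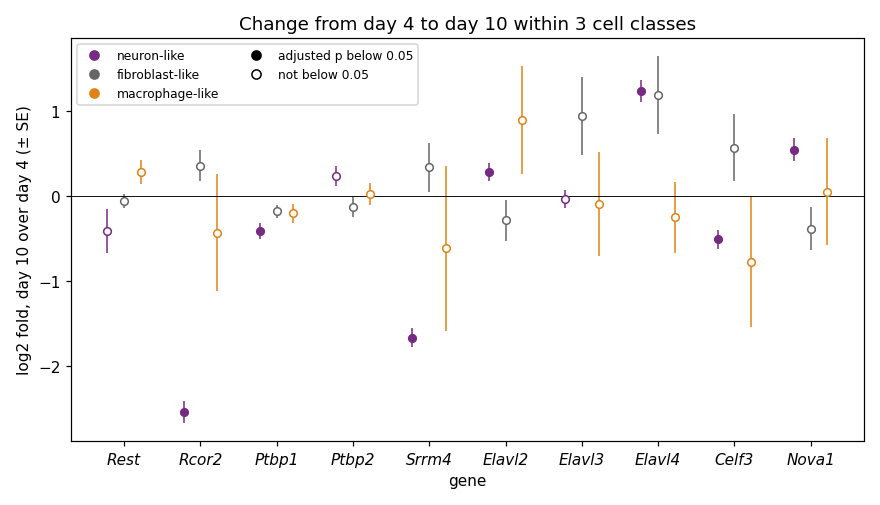
Log2 change from day 4 to day 10 with its standard error (edgeR, 3 libraries a day) for each gene in neuron-like, fibroblast-like and macrophage-like cells; filled points passed an adjusted p of 0.05. All 7 filled points belong to neuron-like cells, from -2.53 for Rcor2 to 1.24 for Elavl4.

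Whether the change to day 10 differed between neuron-like and fibroblast-like cells was tested directly, with the library as a block. Of the 10 genes 7 passed, 3 with a more positive and 4 with a more negative change in neuron-like cells, where 35.1% of 16870 genes passed. Rcor2 differed by -3.01 ± 0.18 on the log2 scale (adjusted p = 2.09e-05), Srrm4 by -2.02 ± 0.22 (adjusted p = 0.000184) and Nova1 by 0.91 ± 0.16 (adjusted p = 0.00248). These 3 calls held with each library left out in turn. At the finer clustering Nova1 was at 0.36 and not called (adjusted p = 0.420), and at 0.74 (edgeR, adjusted p = 0.0150) when WT day 10 was also left out. With doublets kept Srrm4 was at -0.94 (adjusted p = 0.00772).

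The other calls of that test were lost without 1 or more libraries. Ptbp2 differed by 0.34 ± 0.09 (adjusted p = 0.0151) and Celf3 by -1.12 ± 0.32 (adjusted p = 0.0241), and both were lost without Per2-/- day 4, Per2-/- day 10 or WT day 10, with adjusted p from 0.0545 to 0.171. At the finer clustering Ptbp2 was at 0.047 (adjusted p = 0.859), and at 0.24 (adjusted p = 0.105) when WT day 10 was also left out, while Celf3 was at 0.090 with doublets kept (adjusted p = 0.828). Elavl2 differed by 0.55 ± 0.19 (adjusted p = 0.0445), which was lost without any library of day 4, without Per1-/- or Per2-/- of day 10 or without Per2-/- day 7, with adjusted p from 0.0538 to 0.199. With doublets kept, Elavl2 was at 1.14 (adjusted p = 0.000114). Ptbp1 differed by -0.26 ± 0.09 (adjusted p = 0.0492), which was lost without any of the 9, with adjusted p from 0.0555 to 0.170. For Rest the difference was -0.38 ± 0.19 (adjusted p = 0.150), for Elavl3 -0.94 ± 0.39 (adjusted p = 0.0968) and for Elavl4 0.05 ± 0.37 (adjusted p = 0.934). The count was 3 of 10 without Per2-/- day 4 or Per2-/- day 10, and 4 without WT day 10. Without Per1-/- day 10 the sign of Elavl4 turned and passed (-0.55, adjusted p = 0.0428), and Elavl3 passed without Per1-/- day 10 or Per1-/- day 7. With doublets kept, Elavl4 passed at 1.06 (adjusted p = 0.0223) and Rest at -0.75 (adjusted p = 0.0131).

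Between genotypes, none of the 10 genes passed by edgeR in neuron-like, fibroblast-like or macrophage-like cells, and the other classes were not tested. In neuron-like cells 0% of all genes passed for each mutant against WT, and 0% when the mutants were compared with each other, with 470, 611 and 837 genes and 1, 3 and 1 of the 10 at an unadjusted p below 0.05. DESeq2 called 7, 10 and 19 genes. Srrm4 was 0.62 ± 0.11 higher on the log2 scale in Per2-/- than in WT (unadjusted p = 9.34e-05, adjusted p = 0.188) and higher on 3 of 3 days. It was the 1 gene of the 10 that DESeq2 called there (adjusted p = 0.00843), and edgeR called it without Per2-/- day 4 (adjusted p = 0.0231) or with no filter on low counts. Rest was 0.77 ± 0.27 higher in Per1-/- than in WT (unadjusted p = 0.0139, adjusted p of almost 1), with WT the lowest or joint lowest library on each day. On day 10 Per1-/- and WT both stood at 3.41 CPM. Per2-/- was above WT on days 4, 7 and 10 too, with 5.66, 4.26 and 3.93 against 3.56, 2.32 and 3.41 CPM.

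In fibroblast-like cells 0% of genes passed for each mutant against WT, and 0.00591% when Per1-/- was set against Per2-/-, with 1359, 1061 and 2081 genes at an unadjusted p below 0.05. Of the 10, only Srrm4 was among the last (-0.69 ± 0.29, adjusted p = 0.402). DESeq2 called 163, 69 and 448 genes, none of them among the 10. In macrophage-like cells the shares were 0.00785% for Per1-/- and 0% for Per2-/- against WT, and 0.00785% when Per1-/- was set against Per2-/-, with 939, 2031 and 2131 genes at an unadjusted p below 0.05 and 62, 213 and 225 called by DESeq2.

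In the last of these, 5 of the 10 had an unadjusted p below 0.05, namely Elavl2, Elavl3, Elavl4, Celf3 and Nova1, all lower in Per1-/- by 1.57 to 1.79 on the log2 scale (adjusted p from 0.153 to 0.293). DESeq2 called Elavl4 among them (adjusted p = 0.0366). Each was at or below 6.43 CPM in these cells, and 10 neuron markers stood at a median of 0.797% of their neuron-like level there. Whether neuronal RNA carried into the macrophage-like droplets has a part was not tested. Without Per2-/- day 4 all 5 passed (adjusted p from 0.00254 to 0.0165), and so did Elavl2 and Elavl4 for Per2-/- against WT. In that fit 1684 and 1176 of all 12763 genes tested passed for these comparisons.

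One group of 2786 cells, cluster 11, stayed unnamed and combined high Pou3f2 (5230 ± 477 CPM) with an intermediate Rest. Its Myt1l was 161 ± 124 CPM. The factor genes were delivered by virus, and UMIs of Pou3f2 and Myt1l, here and elsewhere, do not part viral from endogenous transcript. Rest was 38.2 ± 13.8 CPM in the 6 libraries with 50 or more cells of cluster 11. It ranged from 23.3 to 52.5 CPM, between the neuron-like and fibroblast-like ranges with no overlap. Elavl2 stood at 210 ± 40.3, Elavl3 at 115 ± 60.4 and Nova1 at 48.9 ± 6.34 CPM, all above every fibroblast-like library. So were Elavl4, Celf3 and Ptbp2, whose lowest libraries in cluster 11 stood at 15.8, 4.43 and 54.6 CPM. Nova1 in this cluster ranged from 38.6 to 58.5 CPM, which overlapped with neuron-like cells. Srrm4 was 4.595 ± 2.14 CPM, below every neuron-like and skeletal muscle-like library but above every fibroblast-like one. Of 9911 genes with a mean of at least 10 CPM in cluster 11 or fibroblast-like cells, 56.9% were higher in cluster 11 in all 6 libraries. A further 22.3% were lower in all 6. Among the 7 of the 10 genes at that level, 5 were higher and 2 lower in all 6. The leading genes of the cluster were Gcg, Pln, Nts and Pou3f2 itself.

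A fibroblast-like cluster with Pou3f2 at 998 ± 268 CPM, led by Otor, Pmch and Tac1, kept Rest at 118 ± 7.92 CPM. There Nova1 was 28.5 ± 6.28 CPM and Elavl2 22.2 ± 7.57 CPM, with Srrm4 at 1.80 ± 0.770 CPM.

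The other genes of these pathways were described in 3 lists. Of 20 genes for partners and regulators of REST, 0 rose and 15 fell in neuron-like cells between days 4 and 10, where 47.8% of all genes passed in either direction, with a median log2 change of -0.54 against -0.01 over all genes. Among them were Ctdsp2, a phosphatase gene that acts on REST (-1.07), Rcor1, the paralog of Rcor2 (-0.92), the histone deacetylase gene Hdac2 (-0.55), the BHC80 gene Phf21a (-0.54) and the histone methyltransferase gene Ehmt1 (-0.61). In fibroblast-like cells 0 rose and 2 fell, where 14.1% of all genes passed, and in macrophage-like cells 4 rose and 1 fell, where 16.9% did.

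Of 20 neuronal genes known as REST targets, 17 rose and 0 fell in neuron-like cells on day 10 (47.8% of all genes passed), with a median of 1.49. They included the adhesion gene L1cam (4.74), the neuropeptide precursor gene Vgf (3.37), the sodium channel gene Scn2a (3.10), the synaptotagmin gene Syt4 (2.82) and the secretogranin gene Scg3 (2.01). On day 7, 13 rose and 0 fell (19.0% of all genes passed). In fibroblast-like cells 4 rose and 0 fell on day 10 (14.1% of all genes passed), namely Cplx1 (3.38), L1cam (1.91), Syt7 (1.71) and Scn2a (0.71). Rest itself passed on neither day in the same cells.

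Of 19 further splicing regulators, 5 rose and 7 fell in neuron-like cells on day 10, where 47.8% of all genes passed, and 3 rose (Rbfox3, Rbfox1 and Celf2) and 0 fell in fibroblast-like cells, where 14.1% did. Those that rose in neuron-like cells included Celf6 (1.71), Celf4 (1.23) and Celf5 (1.03) of the family of Celf3, which itself fell, and Khdrbs2 (1.06), a gene for a splicing factor of neurons. Mbnl2, a muscleblind gene, fell by 0.64. The reprogramming factor gene Myt1l passed on day 7 at 1.08 (edgeR, adjusted p = 0.00330), with 163, 152 and 144 CPM in WT, Per1-/- and Per2-/-. On day 10 it passed at 0.53 (adjusted p = 0.0490), but WT alone carried this day 10 change. From day 4 to day 10 its level went from 62.6 to 155 CPM in WT. It stood at 69.4 and then 71.0 CPM in Per1-/- and at 82.8 and then 80.8 CPM in Per2-/-. The day 10 value was 0.17 without WT day 10 (adjusted p = 0.320) and 0.25 without WT day 4 (adjusted p = 0.306). The day 10 call was also lost without any library of day 7 or without Per1-/- day 4 (adjusted p from 0.0566 to 0.0608). None of the 3 lists had a gene called by edgeR between genotypes in neuron-like, fibroblast-like or macrophage-like cells.

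Over the 57 sums of a class in a library, the genes whose log2 levels ran most like Rest among 11998 genes were Eef1d (Pearson's r = 0.925), Zfp36l1 (0.924) and Myl12a (0.924). The most like Srrm4 were 9530059O14Rik (0.967), Celf3 (0.960) and Myt1 (0.958), and the most like Elavl3 were Ina (0.982), Ksr2 (0.980) and Ap3b2 (0.977). For Ptbp1 they were Myh9 (0.943), Tmem63a (0.924) and Anxa1 (0.922). These correlations describe sums that share libraries and depth.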

How the data were processed

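The authors deposited UMI count matrices of filtered barcodes for 9 libraries (10x 3′ v3.1), 1 for each genotype and day. The labels name Cell Ranger 7.1 and mm10, while the file headers give 4.0.0 (days 4 and 7, 31053 genes) and 6.0.0 (day 10, 32285 genes), and the 30406 shared gene IDs were used. Barcodes totalled 95603, of which 81999 had at least 3000 UMIs and at most 20% mitochondrial UMIs, the limits of the study's methods. The passing cells with the highest Scrublet scores, 8442 in all, were removed as likely doublets, leaving 73557 cells. Their number in a library was fixed in advance from all of its barcodes (0.8% per 1000 barcodes). It therefore took the largest share of passing cells in WT day 10, where 55.4% of barcodes passed. Their mean per library, 8173, is below the 10623 barcodes per library in the files, which equals the cell number the study states.

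Cells were clustered with scanpy 1.11.5 (2000 variable genes, 30 components, 15 neighbours, Leiden resolution 1) without the 10 genes, the lists, the reprogramming factor genes or mitochondrial genes, and clusters were named by marker lists. Clusters and names were rebuilt here and may differ from those of the study. Counts were summed per class and library (at least 50 cells) and tested with edgeR 4.0.16 (TMM, filterByExpr, quasi-likelihood, genotype and day as additive terms, 4 residual degrees of freedom), and p-values were adjusted by Benjamini-Hochberg across every gene in the fit. DESeq2 1.42.0 and limma 3.58.1 were alternatives, with other filters, clusterings and left-out libraries. SD is over libraries, and intervals cover counting error only. Levels by reprogramming factor are not reported here. The tests were checked on simulated counts. The genes named from each list were the 5 with the smallest p, and likeness was Pearson's r of log2(CPM + 1) among genes with a mean of 10 CPM or more in a class. The 10 genes, the lists and the tests were chosen with earlier results of these data known. Gene positions are from GENCODE M21 (GRCm38) and start sequences from RefSeq.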

Additional observations from a re-analysis of the deposited data

Results flagged for a closer look

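The change from day 4 to day 10 differed between neuron-like and fibroblast-like cells for 7 of the 10 genes, by the test of the difference itself (edgeR, library as a block, adjusted p below 0.05), where 35.1% of 16870 genes passed. The count was 3 without Per2-/- day 4 or Per2-/- day 10, and the call of Ptbp1 was lost without any 1 of the 9 libraries. The difference on the log2 scale, neuron-like minus fibroblast-like, was -3.01 for Rcor2, -2.02 for Srrm4, -1.12 for Celf3, -0.26 for Ptbp1, 0.34 for Ptbp2, 0.55 for Elavl2 and 0.91 for Nova1. None of the 7 passed within fibroblast-like cells by edgeR, where the change was 0.57 for Celf3, -0.28 for Elavl2, -0.38 for Nova1, 0.34 for Srrm4 and 0.36 for Rcor2. The neuron-like changes of the same genes were -0.51, 0.29, 0.55, -1.66 and -2.53.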

How the results depend on the processing

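No paired analysis was possible because the labels carry no replicate numbers, so nothing pairs libraries beyond what the reported fits already hold, which is genotype for days and library for the difference between classes. The changes of Rcor2, Srrm4 and Celf3 in neuron-like cells from day 4 to day 10 passed under all 18 alternatives, and those of Ptbp1, Elavl4 and Nova1 under 17, all but the finer clustering, while Elavl2 passed under 9 and Rest under 2, as lower with doublets kept and as higher at the finer clustering without WT day 10. Rest rested on 12 to 166 UMIs in the neuron-like cells of a library, and counting error was not separated from the spread between libraries. The cause of a shift below was not tested unless the setting itself names it. Shared barcodes left out, and the finer clustering without WT day 10, were settings chosen after seeing the data.

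With cells clustered at resolution 2, the neuron-like class took in 1577 cells of WT day 10, and genes called fell to 3346 (day 10) and 291 (day 7) in neuron-like cells and 2780 for the difference from fibroblast-like cells. The log2 change to day 10 then turned to 2.51 for Rest, 0.014 for Ptbp1 and -0.17 for Elavl2, that to day 7 to 0.55 for Rest, and the difference from fibroblast-like cells to 2.25 for Rest, 0.11 for Ptbp1, -0.33 for Elavl2 and -0.58 for Elavl4. At resolution 2 without WT day 10, Rest was at 0.86 (day 10), 0.49 (day 7) and 0.95 (difference), and Elavl4 at -0.19 (difference). Fibroblast-like genes called between days 4 and 7 were 7 and 23 at resolution 2 with and without WT day 10, and macrophage-like ones without it were 808 (day 10) and 0 (day 7).

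With the share of Y-linked cells as a covariate, the change of Elavl3 to day 10 was 0.0029, that of Celf3 to day 7 was 0.0049 and the difference of Elavl4 was -0.063. With doublets kept, the same Elavl3 and Celf3 changes were 0.0050 and 0.0018, and the differences were 0.61 for Elavl3 and 0.090 for Celf3. The covariate gave 88 calls in fibroblast-like cells (day 7), 15 in macrophage-like cells (day 7) and 6 in neuron-like cells (Per2-/- against WT). Keeping doublets gave 2 (Per1-/- against WT) and 7 (Per2-/- against WT) in neuron-like cells. The lone fibroblast-like call for Per1-/- against Per2-/- went to 0 with the covariate, with doublets kept, with limma-voom, at resolution 2 with or without WT day 10, and with shared barcodes left out.

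DESeq2 called 789 genes in fibroblast-like and 561 in macrophage-like cells on day 7. For Per1-/- against WT, Per2-/- against WT and Per1-/- against Per2-/- it called 7, 10 and 19 genes in neuron-like, 163, 69 and 448 in fibroblast-like and 62, 213 and 225 in macrophage-like cells. Without the filter on low counts, edgeR called 152, 196 and 271 in neuron-like cells, 1 (Per2-/- against WT) and 3 (Per1-/- against Per2-/-) in fibroblast-like, 47, 270 and 474 in macrophage-like cells, and 89 and 672 on day 7 in fibroblast-like and macrophage-like cells. limma-voom called 121 on day 7, 5 for Per1-/- against WT and 2 for Per1-/- against Per2-/- in macrophage-like cells, shared barcodes left out gave 4 for the last, and with the covariate both of these genotype counts were 0.

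Leaving out 1 library at a time, calls in neuron-like cells ranged from 5188 to 6514 (day 10), 1210 to 2971 (day 7), 0 to 15 (Per1-/- against WT), 0 to 36 (Per2-/- against WT) and 0 to 65 (Per1-/- against Per2-/-). In fibroblast-like cells they ranged, in the same order, from 974 to 1790, 0 to 34, 0 to 531, 0 to 0 and 0 to 1128. In macrophage-like cells they ranged from 521 to 2104, 0 to 177, 1 to 12, 0 to 1176 and 1 to 1684, and for the difference from 4311 to 5917. The day 10 change of Elavl3 ranged from -0.15 to 0.0475, the day 7 change of Celf3 from -0.15 to 0.0797 and the difference of Elavl4 from -0.55 to 0.48.

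Mean shares of cells with a UMI followed the thinning. Without it they were 32.0% for Ptbp1 and 67.5% for Ptbp2 in neuron-like and 72.5% and 49.7% in fibroblast-like cells, and at 5000 UMIs they were 14.7%, 40.6%, 28.3% and 15.2%. The Ptbp2 share in fibroblast-like cells with a Ptbp1 UMI exceeded that of the others by 8.72 points without thinning and by 1.74 points at 10000 UMIs. In neuron-like cells this difference turned from -1.94 points (-0.93 at 5000 UMIs) to 7.26 points without thinning.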
